A study of Mus musculus with 4 samples.

Results

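The genes described here are the G1 cyclins, their cyclin-dependent kinases (CDKs) and the CDK inhibitors: Ccnd2, Ccnd3, Ccne1, Ccne2, Cdk2, Cdk4, Cdk6, Cdkn1a, Cdkn1b and Cdkn2c. They were taken by symbol as listed rows of a read count table of 24062 genes, all 10 were found, and all 10 passed the filter on low counts, as did 11271 genes in all. The table holds RNA-seq of gBT-I cells, CD8+ T cells whose transgenic receptor recognises a glycoprotein B peptide of herpes simplex virus. Splenocytes of transgenic gBT-I mice kept specific pathogen free (SPF) were activated in culture with that peptide and LPS, were given an interleukin that the labels write as IL-1 on days 2 and 3, and were injected into a vein of recipient mice on day 4. The GF group is 2 libraries of cells from germ-free C57BL/6 recipients, and the SPF group is 2 libraries of cells from SPF C57BL/6 recipients, all sorted from spleen on day 7 after transfer. All 4 libraries thus share the transgene, the SPF donors and the culture, and the recipients differ in having a microbiota or not. The ages of the mice and the number of mice behind each library are not given in the labels, so the p-values reflect the spread of these libraries alone, which may be technical.

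Passage from G1 into DNA replication is set by kinases that are active only when bound to a cyclin. D cyclins bind CDK4 and CDK6 and start the phosphorylation of the retinoblastoma protein, which frees E2F factors, and E cyclins bind CDK2 and carry it further. INK4 inhibitors such as p18 (Cdkn2c) bind CDK4 and CDK6, and CIP/KIP inhibitors such as p21 (Cdkn1a) and p27 (Cdkn1b) bind cyclin-CDK complexes. In T cells p27 is high at rest and is degraded after activation, and cyclins D2 and D3 are induced by antigen receptor and cytokine signals.

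No member passed the test between the recipients, and with 2 libraries a group this does not show that their levels were alike. The edgeR quasi-likelihood test, with Benjamini-Hochberg adjustment over all tested genes and 0.05 as the threshold, called 0 of the 10 members and 0% of all tested genes. At an unadjusted p under 0.05 it called 0 members and 3.22% of all tested genes. DESeq2, the edgeR exact test and limma-voom also called 0 members, and over all tested genes they called 0.0799%, 0.0799% and 0%. With the replicate number as a block, which no label supports as a pairing, 1 member, Cdk6, and 10.7% of all tested genes were called. The members' log2 fold changes of GF over SPF had a median of 0.0018, with 5 above and 5 below 0, and the median over all tested genes was -0.0042. For 2 members, Ccnd3 and Cdkn1b, both GF values were lower than both SPF values, and for 0 members they were higher, against 16.4% and 16.8% of all tested genes.

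Totals ranged from 11544960 to 14431533 counts a library, and levels are given as CPM, counts scaled to the TMM-adjusted library size. A count of 0 would allow up to 3 counts, or 0.205 to 0.262 CPM, for counting error only. Levels of markers are CPM by plain library totals. The sum of 6 CD8 T cell markers was 3974 to 5532 CPM in every library, while Cd4 was at or below 0.520 CPM, and Hba-a1 and Hbb-bt of red cells were at 0 in all 4 libraries. The 8 B cell markers summed to 104 and 28.7 CPM in GF replicates 1 and 2, and to 82.7 and 25.9 CPM in SPF replicates 1 and 2, with Ms4a1 at 0 in both libraries numbered 2. Marker sums of 2 other cell types lay apart between the groups. The 3 NK cell markers summed to 47.5 and 37.7 CPM in GF against 67.0 and 56.0 CPM in SPF, nearly all of it Klrb1c and Eomes, with Ncr1 at or below 0.260 CPM. The 4 dendritic cell markers summed to 782 and 986 CPM in GF against 397 and 710 CPM in SPF, nearly all of it Itgax. Xcr1 overlapped between the groups, at 19.48 and 13.51 CPM in GF against 20.27 and 13.47 CPM in SPF, and Flt3 and Siglech were at or below 0.281 CPM. Klrb1c and Eomes were thus lower in both GF libraries, as Ccnd3 and Cdkn1b were, while the third NK marker, Ncr1, overlapped between the groups. The part of the NK or dendritic cell list in the members' values was not tested. The 5 macrophage, monocyte and neutrophil markers in the table summed to 80.4 to 113 CPM, with overlap of the groups. The chi-square per degree of freedom between the counts of 2 libraries was 43.9 within GF and 89.2 within SPF, and 18.4 to 144 over the 4 pairs of a GF and an SPF library. In bulk RNA, fewer cells in cycle and less transcript per cell cannot be told apart.

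**Figure D1:**
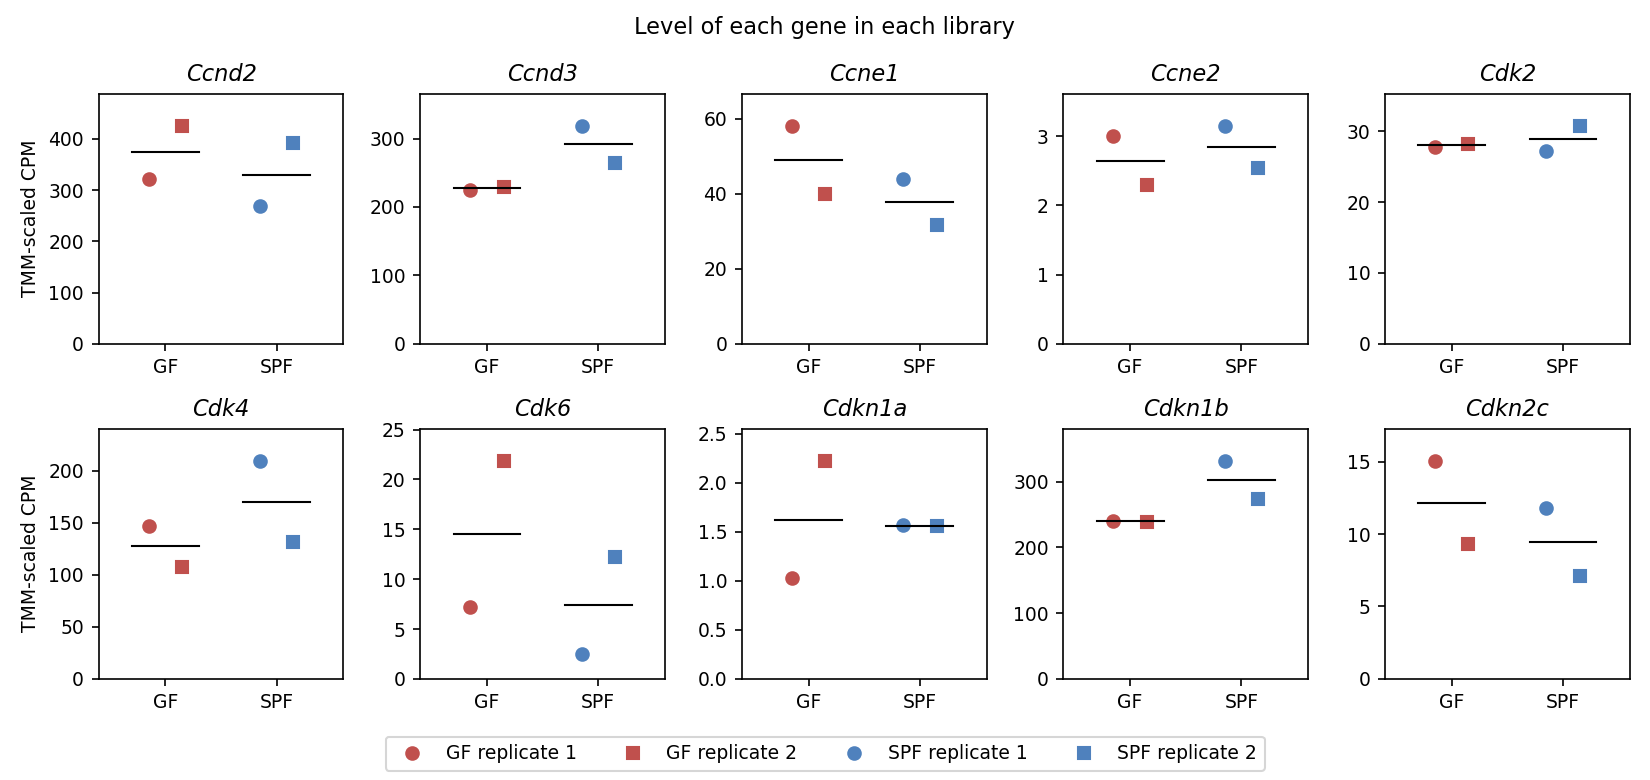
Level of each of the 10 genes in each library, in TMM-scaled CPM on axes that start at 0, with GF left of SPF, circles for replicate 1, squares for replicate 2 and a line at each group's mean (n = 2). Ccnd3 and Cdkn1b have both GF points below both SPF points. Ccnd2, Cdk6 and, by little, Cdk2 have both squares above the circle of the same group.

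The D cyclin genes had unlike patterns. Ccnd2, the cyclin D2 gene, measured 322 and 425 CPM in GF replicates 1 and 2, against 269 and 391 CPM in SPF replicates 1 and 2. In both groups replicate 2 was the higher, and the groups overlapped. Its log2 fold change was 0.18 (SE 0.29, adjusted p = 0.89 by edgeR's quasi-likelihood test). Ccnd3, the cyclin D3 gene, measured 225 and 229.7 CPM in GF replicates 1 and 2, against 318 and 265 CPM in SPF replicates 1 and 2. Both GF libraries were thus low and close together, and the SPF libraries lay apart from each other and above them. The log2 fold change was -0.36 (SE 0.21, adjusted p = 0.86 by the same test), and it was negative without each library in turn, from -0.49 to -0.22. In mm10, Ccnd2 is at chr6:127125162-127152193 (minus strand) and Ccnd3 at chr17:47505051-47599691 (plus strand). Exons of Ccnd3 share 361 nt with Bysl on the opposite strand, and the library kit does not mark strand, so reads from there cannot be told apart. Bysl, which encodes a ribosome assembly factor, measured 54.2 and 46.4 CPM in GF against 52.6 and 49.7 CPM in SPF. The third D cyclin gene, Ccnd1, chosen after its values were seen, measured 2.25 and 1.22 CPM in GF against 1.31 and 0.989 CPM in SPF.

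The 3 kinase genes took 3 courses, and their promoters are shown because the kinases hold both ends of the members' fold changes, Cdk6 the highest and Cdk4 the lowest. RefSeq gives a promoter window for 8 of the 10 members in GRCm38.p6 (the mm10 assembly), from 250 bases before to 50 after the start site, and for Ccnd2 and Ccne2 no window was matched. Each line runs 5′ to 3′ on the gene's strand, with CACGTG (the E box that MYC and related factors bind) and the E2F letters TTTCCCGC, TTTGGCGC, TTTGCCGC or TTTCGCGC on either strand in capitals.
Cdk4 promoter, chr10:127063285-127063584, plus strand: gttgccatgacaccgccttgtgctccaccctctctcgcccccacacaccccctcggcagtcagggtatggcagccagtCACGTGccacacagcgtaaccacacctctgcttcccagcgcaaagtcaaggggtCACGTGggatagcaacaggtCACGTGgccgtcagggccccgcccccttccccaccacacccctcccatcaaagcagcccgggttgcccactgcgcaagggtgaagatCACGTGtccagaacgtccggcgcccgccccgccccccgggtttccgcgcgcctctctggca
Cdk6 promoter, chr5:3343643-3343942, plus strand: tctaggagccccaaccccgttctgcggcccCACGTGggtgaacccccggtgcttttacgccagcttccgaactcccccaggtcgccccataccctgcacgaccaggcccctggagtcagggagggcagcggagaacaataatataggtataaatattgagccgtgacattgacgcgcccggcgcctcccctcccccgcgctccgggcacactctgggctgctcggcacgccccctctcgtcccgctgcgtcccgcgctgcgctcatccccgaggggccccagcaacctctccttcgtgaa
Cdk2 promoter, chr10:128705002-128705301, minus strand: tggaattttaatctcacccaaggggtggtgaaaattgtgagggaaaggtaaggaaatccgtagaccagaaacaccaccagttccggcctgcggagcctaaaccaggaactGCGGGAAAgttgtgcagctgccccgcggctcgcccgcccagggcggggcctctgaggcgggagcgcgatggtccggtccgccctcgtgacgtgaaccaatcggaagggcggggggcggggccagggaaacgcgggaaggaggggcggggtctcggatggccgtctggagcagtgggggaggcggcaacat
The Cdk4 window holds 4 E boxes, whose first letters are at -172, -118, -98 and -11 from the start site. The Cdk6 window holds 1, at -220, and no E2F letters, while the Cdk2 window holds 1 set of E2F letters, at -140, and no E box. Of 32851 promoter windows of this length, 7.15% hold an E box, 0.0244% hold at least 4, and 2.26% hold one of the E2F letter strings. No E box and E2F match overlap in these windows, and a match is a description of the sequence only.

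Cdk4, whose kinase pairs with D cyclins, was the most abundant kinase transcript. It measured 147 and 108 CPM in GF replicates 1 and 2, against 209 and 131 CPM in SPF replicates 1 and 2. Replicate 1 was the higher in both groups, and GF replicate 1 lay above SPF replicate 2, so the groups overlapped. Its log2 fold change was -0.42 (SE 0.31, adjusted p = 0.86 by edgeR's quasi-likelihood test), and it depended on SPF replicate 1, without which it was -0.043. Without SPF replicate 2 it was -0.72. Cdk4 and Tspan31, on opposite strands, share 641 nt of exons, and Tspan31, which encodes a tetraspanin, measured 45.3 and 34.1 CPM in GF against 53.5 and 41.9 CPM in SPF.

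Cdk6, which encodes the other partner of the D cyclins, varied most among the members. It had 105 and 305 reads in GF replicates 1 and 2 and 29 and 173 reads in SPF replicates 1 and 2. These came to 7.17 and 21.8 CPM in GF, against 2.53 and 12.2 CPM in SPF. In both groups replicate 2 was far above replicate 1, by 1.59 in GF and 2.21 in SPF on the log2 scale, and GF replicate 1 lay below SPF replicate 2. The log2 fold change was 0.96 (SE 0.85, adjusted p = 0.86 by edgeR's quasi-likelihood test), higher than that of 97.1% of tested genes or equal to it. Which libraries entered decided the value: it was 2.51 (adjusted p = 0.00014) without SPF replicate 2, where 11.5% of all tested genes were called, 1.55 without GF replicate 1, 0.25 without SPF replicate 1 and -0.05 without GF replicate 2. A group left with 1 library is assumed there to vary like the other.

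Cdk2, whose kinase pairs with E and A cyclins, hardly varied. It measured 27.8 and 28.3 CPM in GF replicates 1 and 2, against 27.2 and 30.7 CPM in SPF replicates 1 and 2. The GF values lay between the SPF values, and the log2 fold change was -0.05 (SE 0.22, adjusted p = 0.96 by edgeR's quasi-likelihood test). Cdk2 is at chr10:128697939-128705031 (minus strand), Cdk4 at chr10:127063534-127067920 (plus) and Cdk6 at chr5:3341485-3531008 (plus).

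Of the E cyclin genes, Ccne1 carried nearly all reads. It measured 58.1 and 39.9 CPM in GF replicates 1 and 2, against 44.0 and 31.65 CPM in SPF replicates 1 and 2. Within each group replicate 1 was the higher, and GF replicate 2 lay below SPF replicate 1, so the groups overlapped. The log2 fold change was 0.37 (SE 0.30, adjusted p = 0.86 by edgeR's quasi-likelihood test), from 0.08 without GF replicate 1 and 0.15 without SPF replicate 2 to 0.61 without GF replicate 2 and 0.63 without SPF replicate 1. Ccne2, the second E cyclin gene, rested on 44 and 32 reads in GF and 36 and 36 reads in SPF, or 3.01 and 2.29 CPM in GF against 3.14 and 2.54 CPM in SPF. The exact Poisson 95% intervals of its 4 libraries all overlapped, from 1.57 to 4.35 CPM in all, which does not set how large a difference could be detected. The log2 fold change of Ccne2 was -0.10 (SE 0.40, adjusted p = 0.95 by edgeR's quasi-likelihood test). Ccne1 is at chr7:38097984-38107534 (minus strand). Ccne2, at chr4:11191351-11204779 (plus strand), shares 609 nt of exons with Ints8, a subunit gene of the Integrator complex on the other strand, at 42.4 and 66.8 CPM in GF against 55.6 and 78.2 CPM in SPF.

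The inhibitor genes spanned over 2 orders of magnitude in CPM. Cdkn1b, the p27 gene, was the highest in CPM of the member inhibitors. It measured 240.1 and 239 CPM in GF replicates 1 and 2, against 331 and 274 CPM in SPF replicates 1 and 2. Like Ccnd3, it was low and even in GF, and uneven and higher in SPF. Its log2 fold change was -0.34 (SE 0.21, adjusted p = 0.86 by edgeR's quasi-likelihood test), and it was negative without each library in turn, from -0.47 to -0.19. Cdkn2c, the p18 gene, had 15.03 and 9.30 CPM in GF replicates 1 and 2, against 11.8 and 7.14 CPM in SPF replicates 1 and 2. Its order of libraries was that of Ccne1, with GF replicate 1 highest and SPF replicate 2 lowest, and the groups overlapped. The log2 fold change was 0.37 (SE 0.40, adjusted p = 0.86 by the same test), and it was -0.03 without GF replicate 1, 0.04 without SPF replicate 2 and 0.77 without SPF replicate 1.

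Cdkn1a, the p21 gene and a target of p53, had few reads in every library. It had 15 and 31 reads in GF and 18 and 22 reads in SPF, or 1.02 and 2.22 CPM in GF against 1.57 and 1.55 CPM in SPF. The 2 GF values lay on either side of the SPF values, and their exact Poisson 95% intervals, 0.573 to 1.69 and 1.51 to 3.15 CPM, overlapped. The log2 fold change was 0.05 (SE 0.54, adjusted p = 0.98 by edgeR's quasi-likelihood test). Cdkn1b is at chr6:134920401-134925513 and Cdkn1a at chr17:29090976-29100727 (both plus strand), and Cdkn2c at chr4:109660876-109667189 (minus strand).

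The members also differed by replicate number, and in part with the length of their transcripts. Over the 11194 tested genes with an annotated length (genes are not replicates), the rank correlation (Spearman's rho) of the log2 difference with transcript length was 0.52 for GF replicate 2 minus 1, 0.58 for SPF replicate 2 minus 1 and 0.42 for GF minus SPF. In the decile of longest transcripts (median 7752 nt) the median differences were 0.49, 0.72 and 0.28 in that order, and in the decile of shortest (median 862 nt) -0.40, -0.78 and -0.36. Cdk6 has the longest transcript of the members (11525 nt) and Ccnd2 the next (6330 nt), and these were higher in replicate 2 of both groups. Ccne1, Cdk4 and Cdkn2c (2000, 2053 and 2471 nt) were lower in replicate 2 of both groups, by 0.54, 0.44 and 0.68 in GF and by 0.47, 0.67 and 0.71 in SPF on the log2 scale. Members of similar length, Ccnd3, Cdkn1a and Cdk2 (2113, 2080 and 2240 nt), did not share this. Their differences of replicate 2 minus 1 were 0.03, 1.01 and 0.02 in GF, and -0.27, -0.02 and 0.18 in SPF. The B cell marker sum was also higher in both libraries numbered 1, and its part in the values of Ccne1, Cdk4 and Cdkn2c was not tested. Averaged over both groups, the difference of replicate 2 minus 1 of Cdk6 was 1.90, at the 99.0th percentile of tested genes, and that of Cdkn2c was -0.70, at the 7.16th.

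**Figure D2:**
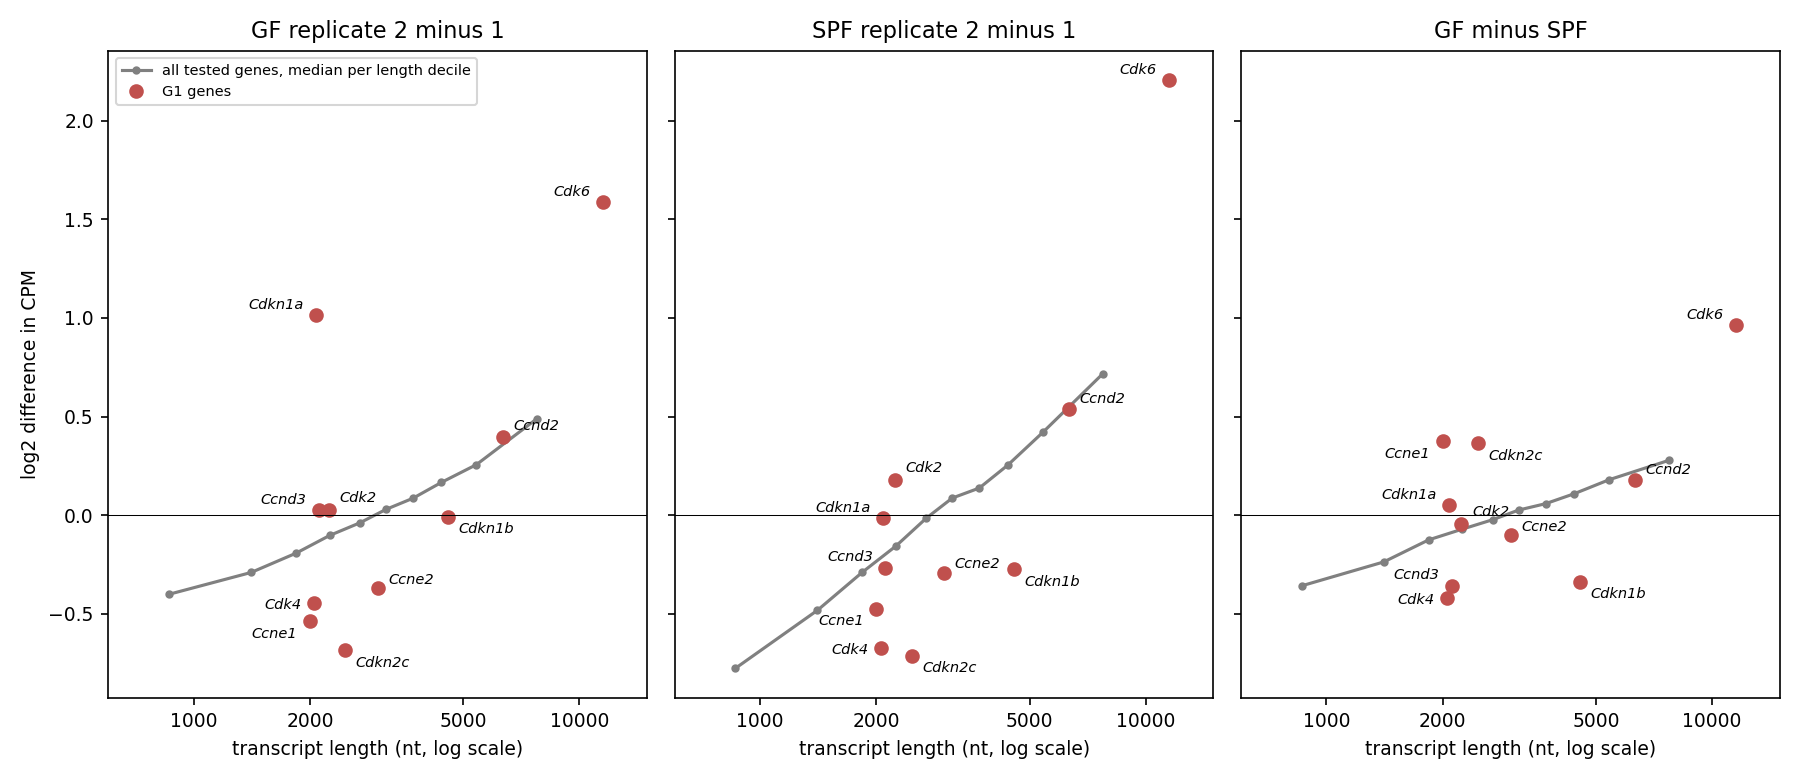
Log2 difference in CPM of GF replicate 2 minus 1, SPF replicate 2 minus 1 and GF minus SPF against transcript length on a log scale, for the 10 genes (red) and as the median of all tested genes in each decile of length (grey line). Ccnd2 sits on the grey line in all 3 panels, Cdk6 lies above the end of the line, and Cdkn1b lies below the line in all 3.

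With the trend with length removed from each library, the fold changes were closer to 0 for the longest transcripts and farther from 0 for some others. Ccnd2 then measured 332 and 347 CPM in GF replicates 1 and 2, against 350 and 353 CPM in SPF replicates 1 and 2, and its log2 fold change was -0.05 (SE 0.12). Its 4 libraries were thus nearly level. Cdk6 measured 8.10 and 15.02 CPM in GF against 4.21 and 10.3 CPM in SPF, so replicate 2 was still the higher in both groups, with a log2 fold change of 0.66 (SE 0.52). Ccne1 measured 57.2 and 43.8 CPM in GF against 39.1 and 33.3 CPM in SPF, and both GF libraries then lay above both SPF libraries, with a log2 fold change of 0.48 (SE 0.20). Cdkn1b, at 244 and 214 CPM in GF against 383 and 259 CPM in SPF, had a log2 fold change of -0.49 (SE 0.22). For Ccnd3 it was -0.26 (SE 0.13) and for Cdk4 -0.31 (SE 0.21). Differences of replicate 2 minus 1 stayed negative for Ccne1, Cdk4 and Cdkn2c. They were -0.39, -0.30 and -0.61 in GF and -0.23, -0.45 and -0.62 in SPF on the log2 scale. No member passed the edgeR quasi-likelihood test here either, with adjusted p of 0.69 for Ccne1, Cdkn1b and Ccnd3, and 0% of all tested genes were called. The groups did not overlap for Ccne1, above, and for Ccnd2, Ccnd3 and Cdkn1b, below, against 20.5% of all tested genes in each direction.

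**Figure D3:**
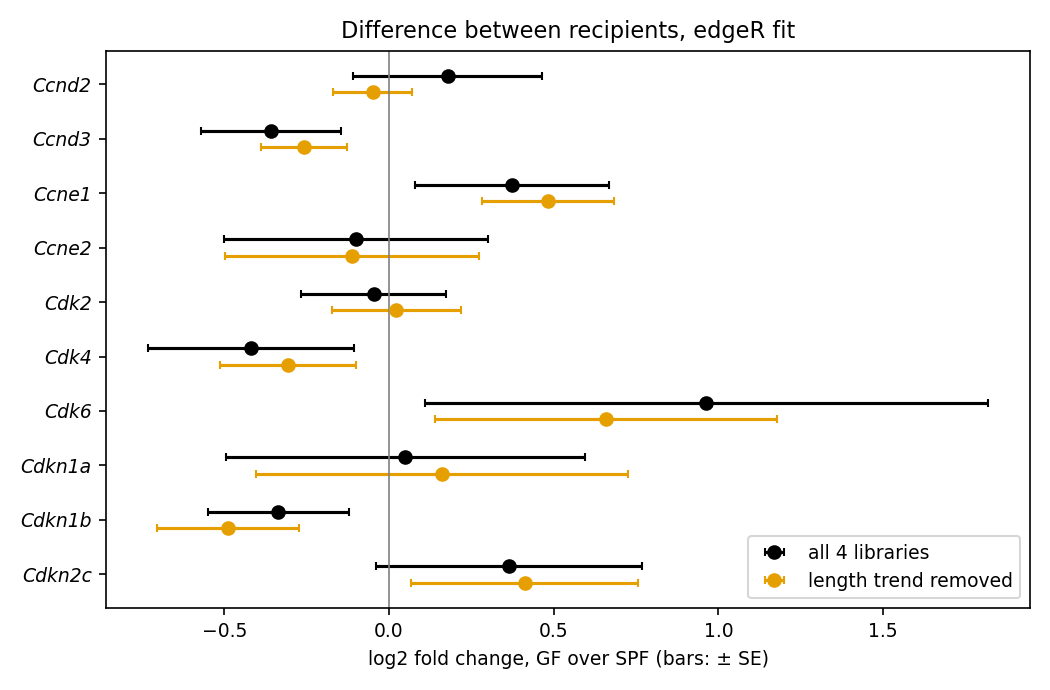
Log2 fold change of GF over SPF for each of the 10 genes, from the edgeR fit of all 4 libraries (black) and with the trend with transcript length removed (orange), with bars of 1 standard error. The bars of Cdk6 are the widest, and Ccnd2 moves across 0 when the trend is removed.

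Ratios of members within a library do not depend on how libraries are scaled. The ratio of Ccnd2 to Ccnd3 CPM was 1.43 and 1.85 in GF replicates 1 and 2, against 0.847 and 1.48 in SPF replicates 1 and 2. Cyclin D2 reads thus outnumbered cyclin D3 reads in every library but SPF replicate 1. The difference of mean log2 ratios was 0.54 (two-sided exact permutation p = 0.67), and the smallest p that 2 libraries against 2 allow is 0.33. The ratio of Ccne1 to Ccne2 was 18.5 and 16.4 in GF, against 13.4 and 11.8 in SPF, and here both GF libraries lay above both SPF libraries (difference of log2 ratios 0.47, exact permutation p = 0.33). Its precision is limited by the reads of Ccne2. The ratio of Cdk6 to Cdk4 was 0.0498 and 0.204 in GF, against 0.0128 and 0.0942 in SPF, so Cdk6 reads were a small part of the D cyclin partners in every library, with a difference of log2 ratios of 1.54 (exact permutation p = 0.67). With the length trend removed these differences were 0.21, 0.59 and 1.04. The summed level per kilobase of the 3 member inhibitors over that of the 3 kinases was 0.703 and 0.856 in GF, against 0.686 and 0.811 in SPF. The difference of log2 ratios was 0.06 with all libraries and -0.15 with the length trend removed. These sums rest mainly on Cdkn1b and Cdk4. They leave out Cdkn2d, an inhibitor gene outside the members, which lay above Cdkn1b per kilobase in every library (98.9 and 72.2 in GF, 94.3 and 66.8 in SPF).

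**Figure D4:**
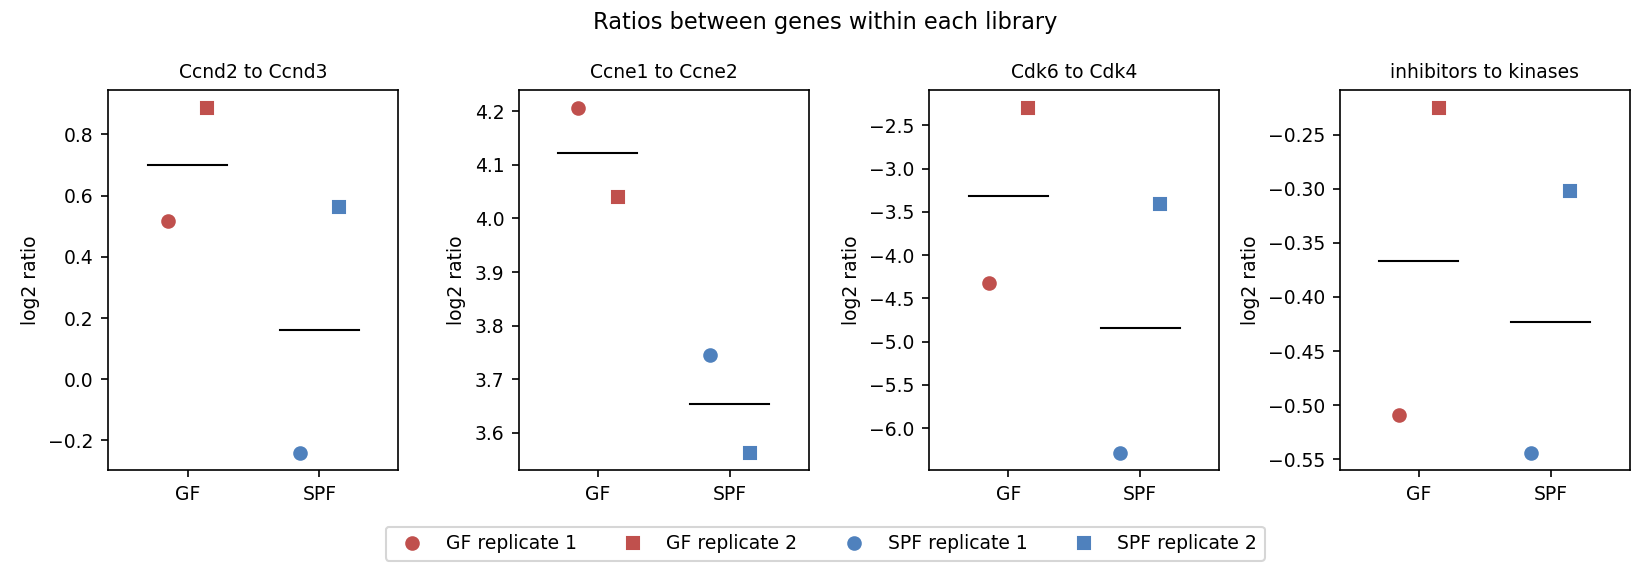
Log2 ratios of Ccnd2 to Ccnd3, Ccne1 to Ccne2, Cdk6 to Cdk4 and of the summed inhibitors to the summed kinases (per kilobase) in each library, with GF left of SPF and a line at each group's mean (n = 2). The groups are apart for Ccne1 to Ccne2, and in the other panels they overlap and replicate 2 lies above replicate 1.

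Levels of different genes were compared as CPM per kilobase of the principal annotated transcript. Ccnd3 was highest, at 107 and 109 in GF against 151 and 125 in SPF. Next came Cdk4 (71.5 and 52.5 in GF, 102 and 63.9 in SPF), Cdkn1b (52.7 and 52.5 in GF, 72.7 and 60.1 in SPF) and Ccnd2 (50.9 and 67.1 in GF, 42.5 and 61.8 in SPF), whose ranges overlapped. Ccne1 followed, at 29.0 and 19.97 in GF against 22.0 and 15.8 in SPF, then Cdk2 between 12.1 and 13.7 and Cdkn2c between 2.89 and 6.08 over all libraries. Ccne2 (0.762 to 1.05), Cdkn1a (0.493 to 1.07) and Cdk6 (0.220 to 1.89) were lowest and did not differ from each other beyond their spread. The order rests on the transcript taken: over the length of all annotated exons, Ccnd3 had 25.7 and 26.2 CPM per kilobase in GF against 36.3 and 30.2 in SPF. It then lay below Cdkn1b and Cdk4 in every library, and below Ccnd2 in every library but SPF replicate 1.

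The other genes of the G1 network were nearly balanced, with a higher mean in GF for 13 and a lower one for 12. Of 28 listed genes 25 were tested, 0 were called in either direction by any of the 4 tools (1 at an unadjusted p under 0.05 in edgeR's quasi-likelihood test), and the GF values were all above the SPF values for 5 and all below them for 5 (20% each, against 16.8% and 16.4% of all tested genes). Their median log2 fold change was 0.01, and -0.18 to 0.09 with 1 library left out. Without SPF replicate 2, which leaves 1 SPF library, the log2 fold changes of Skp1a, Rbx1 and E2f2 were -1.06, -0.93 and 0.96. These genes were named because they passed in that fit. With all libraries the values were -0.69 (SE 0.33), -0.54 (SE 0.37) and 1.01 (SE 0.19). The 4 with the smallest p were E2f2, Rb1, Skp1a and Skp2. E2f2, an E2F factor gene, measured 204 and 206 CPM in GF against 105 and 98.8 CPM in SPF, with a log2 fold change of 1.01 (SE 0.19, adjusted p = 0.86 by edgeR's quasi-likelihood test). Rb1, the retinoblastoma gene, measured 60.6 and 65.9 CPM in GF against 36.3 and 51.6 CPM in SPF. Skp2, the adaptor that marks p27 for degradation, measured 4.30 and 3.94 CPM in GF against 8.82 and 5.30 CPM in SPF, and Skp1a, its partner in the SCF ligase, 136 and 109.6 CPM in GF against 254 and 142 CPM in SPF. Cdkn1c, Cdkn2a and Cdkn2b, the remaining inhibitor genes beside Cdkn2d, had at most 7 reads in any library and were not tested. Cdkn2d, the p19 INK4 gene, was chosen after its values were seen and measured 141 and 103 CPM in GF against 134 and 95.02 CPM in SPF, with replicate 1 the higher in both groups, as for Cdkn2c.

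Cyclins, kinases and markers of S phase to mitosis had higher fitted levels in GF, though not in every library, and Mki67 passed a test in some of the fits. With the replicate block, where 10.7% of all tested genes were called, Top2a, Ccna2 and Ccnb2 passed too. Of 15 listed genes 13 were tested and 0 were called by edgeR's quasi-likelihood test (2 at an unadjusted p under 0.05), while Mki67, a marker of cycling cells, was called by DESeq2 (log2 fold change 1.92, adjusted p = 0.039). All 13 had higher fitted levels in GF, and both GF libraries lay above both SPF libraries for 7 of them (53.8%, against 16.8% of all tested genes). GF replicate 2 lay below SPF replicate 2 for Plk1 (3.08 against 3.60 CPM), Ccnf (3.65 against 4.24) and Aurka (3.72 against 4.10). It lay above SPF replicate 2 for the other tested genes of the list. The median log2 fold change of the 13 was 0.66, with 0.32 without GF replicate 1 and 1.09 without GF replicate 2. With the length trend removed it was 0.70. The log2 fold change of Mki67 was 1.43 without SPF replicate 1 and 2.67 without SPF replicate 2. That of Top2a was 1.08 with all libraries and 1.64 without SPF replicate 2. Mki67, with a long transcript (10061 nt), measured 49.9 and 47.7 CPM in GF against 7.60 and 18.2 CPM in SPF. Top2a measured 61.0 and 47.9 CPM in GF against 17.4 and 34.2 CPM in SPF. Ccna2, the cyclin A2 gene, measured 6.08 and 1.43 CPM in GF against 1.40 and 0.706 CPM in SPF, and Ccnb2, a mitotic cyclin gene, 5.60 and 1.29 CPM in GF against 1.31 and 0.777 CPM in SPF. These rest on few reads: 89 and 20 in GF and 16 and 10 in SPF for Ccna2. For Ccnb2 they were 82 and 18 in GF and 15 and 11 in SPF. For both cyclins the high library was GF replicate 1, which also had the highest Ccne1 and Cdkn2c. The B cell marker sum was highest in that library too (104 CPM, against 28.7 CPM in GF replicate 2, and 82.7 and 25.9 CPM in SPF). The dendritic cell sum was higher in both GF libraries, which held for Itgax and not for Xcr1, Flt3 or Siglech. The part of either sum in the values of these genes was not tested. Cdc25c and Bub1 were not tested, and Bub1, a spindle checkpoint kinase gene, had 35 and 4 reads in GF against 4 and 0 in SPF.

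Genes that p53 induces, as it does Cdkn1a, were examined beside it. Of 20 listed genes 17 were tested and 0 were called by any of the 4 tools (0 at an unadjusted p under 0.05 in edgeR's quasi-likelihood test). The GF values were all below the SPF values for 6 (35.3%, against 16.4% of all tested genes) and above for 0, and the median log2 fold change was -0.17, though -0.03 without SPF replicate 1, -0.10 without SPF replicate 2 and -0.11 with the length trend removed. Means in GF were higher for 8 genes and lower for 9. Without SPF replicate 2, which leaves 1 SPF library, the log2 fold changes of Sesn2 and Rps27l were 1.90 and -1.34. These genes were named because they passed in that fit. With all libraries the values were 0.68 (SE 0.63) and -0.82 (SE 0.47). Phlda3, an inhibitor of AKT, measured 0.342 and 0.429 CPM in GF against 1.22 and 0.777 CPM in SPF, which is near the detection limit. Ccng1, the cyclin G1 gene, measured 126 and 129 CPM in GF against 160.2 and 149 CPM in SPF, Ei24 76.0 and 70.7 CPM in GF against 104 and 79.4 CPM in SPF, and Rps27l 38.3 and 27.6 CPM in GF against 83.2 and 33.0 CPM in SPF. Eda2r, Perp and Ddit4l did not pass the filter.

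Among 15 quiescence and FOXO pathway genes, the pathway that raises Cdkn1b transcription, all were tested, 0 were called by any of the 4 tools (1 at an unadjusted p under 0.05 in edgeR's quasi-likelihood test), 2 had both GF libraries above and 2 below both SPF libraries (13.3% each, against 16.8% and 16.4% of all tested genes), and the median log2 fold change was -0.05. With 1 library left out the median ranged from -0.08 to 0.02. Without SPF replicate 2, which leaves 1 SPF library, the log2 fold changes of Foxo3, Tsc1 and Irs2 were 2.03, 1.23 and 2.27. These genes were named because they passed in that fit, and their transcripts are long (6848, 7674 and 6323 nt). With all libraries the values were 0.53 (SE 0.76), 0.43 (SE 0.47) and 0.75 (SE 0.72). Slfn2, which keeps T cells quiescent in mice, measured 336 and 305 CPM in GF against 511 and 436 CPM in SPF. Foxo1, itself a FOXO factor gene, measured 247 and 292 CPM in GF against 198 and 201 CPM in SPF. Tsc22d3, the glucocorticoid-induced leucine zipper gene, measured 339 and 295 CPM in GF against 231 and 249.9 CPM in SPF, and Btg1, an antiproliferative gene, 828 and 868 CPM in GF against 1142 and 924 CPM in SPF.

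The tested genes most like Cdk6 and Cdk4 over the 4 libraries were found by the root mean square distance of centred log2 levels, among 8559 genes with a mean of at least 10 CPM. Nearest to Cdk6 were Rel, an NF-κB subunit gene (distance 0.12), Crebbp, a histone acetyltransferase gene (0.14), and Heg1 (0.15). Rel measured 9.02 and 25.3 CPM in GF replicates 1 and 2, against 3.67 and 17.2 CPM in SPF replicates 1 and 2. Nearest to Cdk4 were Lamtor3, a scaffold gene of mTORC1 and MAPK signalling (distance 0.0020), Tomm22, of the mitochondrial import pore (0.0085), and Bloc1s2 (0.013). Lamtor3 measured 64.6 and 47.3 CPM in GF against 92.2 and 57.8 CPM in SPF. These likenesses over 4 libraries are descriptions with no test.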

How the data were processed

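RNA-seq libraries, 2 of gBT-I cells from GF and 2 from SPF recipients, were made with an Illumina TruSeq kit that does not mark strand and 1 µg of RNA. The deposited file gives raw read counts by gene symbol, with 1 column for each library. The submitters' processing notes name CASAVA, TopHat, Picard, featureCounts, Subread and edgeR, and the build mm10. Their versions, settings and annotation were not given in the sources used.

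The count test was edgeR 4.0.16 under R 4.3.3 (TMM, filterByExpr, quasi-likelihood F test without covariates, two-sided, Benjamini-Hochberg over 11271 genes), with DESeq2 1.42.0 and limma 3.58.1 as alternatives. Standard errors are the log2 fold change over the square root of F. The step was tested on simulated data that were less dispersed than these libraries (common dispersion 0.076) and had no effect of replicate number or length. The power and error rate of the test in these libraries were thus not measured. Log2 levels used a prior count of 2. Length trends were removed with a lowess curve per library. Lengths, positions and overlaps came from GENCODE M21 (GRCm38), with 99.3% of tested genes matched. Marker sums use plain library totals.

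The members, lists and alternatives were chosen with earlier results of these data known. Named genes are all members and, of each list, any called and up to 4 with the smallest p, the listed genes not tested, and the 3 genes nearest to the members with the highest and lowest fold change. Other genes are marked. No set was tested.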

Additional observations from a re-analysis of the deposited data

How the results depend on the processing

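With the replicate number as a replicate block, Cdk6 was the 1 member called (log2 fold change 1.10, SE 0.26, adjusted p = 0.012), beside 1206 genes in all. With the replicate block and the length trend removed, 225 genes (2%) and no member were called, and Cdk6 had 0.72 (adjusted p = 0.11), Ccne1 0.48 (0.085) and Cdkn1b -0.47 (0.074). No label says that a number marks a shared animal, day or batch, and the libraries were treated as unpaired, though same-numbered libraries deviated together (r = 0.71 across genes). Of the other G1 list the block called 3 of 25 tested genes (E2f2, Rb1 and Skp1a). Of the S to M phase list it called 4 of 13 (Mki67, Top2a, Ccna2 and Ccnb2). It called 1 of 17 p53 genes (Rps27l) and 2 of 15 quiescence genes (Slfn2 and Foxo3). The share over all tested genes was 10.7%, and no list was tested as a set. With the length trend removed as well, E2f2 (log2 fold change 0.86) and Mki67 (1.64) were called. Their adjusted p was 0.021 each by edgeR's quasi-likelihood test, and 2% of all tested genes were called. DESeq2 and the exact test called 9 genes each, with 1 S to M phase gene by DESeq2. With 1 library left out, 0 to 1327 genes and 0 to 1 members were called, the most without SPF replicate 2, and 0 to 3, 0 to 2, 0 to 2 and 0 to 3 genes of the 4 lists. Without SPF replicate 1, 17 genes were called.

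Values that turned sign were as follows, and the cause was not tested. With the length trend removed, Ccnd2 had -0.049 and Cdk2 0.022 (-0.049 and 0.030 with the block), and the log2 ratio of inhibitors to kinases differed by -0.15. By limma-voom Cdkn1a had -0.059. With each library left out, log2 fold changes ranged from -0.065 to 0.47 for Ccnd2, from -0.31 to 0.078 for Ccne2, from -0.13 to 0.039 for Cdk2, from -0.049 to 2.51 for Cdk6, from -0.61 to 0.50 for Cdkn1a and from -0.025 to 0.77 for Cdkn2c, and the difference in the ratio of inhibitors to kinases from -0.086 to 0.20. Ccnd3, Cdkn1b, Ccne1 and Cdk4 had 1 direction in every alternative run, though Cdk4 ranged from -0.72 without SPF replicate 2 to -0.043 without SPF replicate 1. With libraries left out, the differences in log2 ratio ranged from 0.14 to 0.94 for Ccnd2 to Ccnd3, from 0.38 to 0.56 for Ccne1 to Ccne2 and from 0.097 to 2.97 for Cdk6 to Cdk4. With lengths of all exons, an alternative chosen after seeing the data, Ccnd3 had -0.54 and no member changed sign. Few reads of Ccne2 and Cdkn1a limit what could be detected.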
